A study of Mus musculus with 2 samples.

Results

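The miR-30 family was followed on both arms of its hairpins in exosomes released by mouse macrophages. The members were taken by name, with earlier results of these data known. They are 5 guide strands from the 5p arm, mmu-miR-30a-5p, mmu-miR-30b-5p, mmu-miR-30c-5p, mmu-miR-30d-5p and mmu-miR-30e-5p, and 3 entries from the 3p arm, mmu-miR-30a-3p, mmu-miR-30d-3p and mmu-miR-30e-3p. These are 8 of the 1976 mature miRNAs listed, and the prefix mmu, for mouse, is dropped below. The macrophages were grown from bone marrow of C57BL/6 mice aged 5 to 6 weeks, with 10 ng/mL of the growth factor M-CSF for 7 days. They then received 20 ng/mL of IFN-γ (M1) or 20 ng/mL of IL-4 (M2) for 1 day, followed by 2 days without serum, when the exosomes were collected. Exosomes are small vesicles that carry RNA out of the cell. Each condition is 1 small RNA library, called the M1 and the M2 library here. The labels do not say how many animals or cultures went into it, so the values come without a replicate error and the conditions could not be tested.

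A miRNA hairpin is cut into a short duplex, of which the guide strand is loaded into an Argonaute protein and the other, the passenger strand, is usually degraded. The guide finds its targets mainly through its seed, bases 2 to 8 from the 5′ end. The miR-30 guides are widely expressed and are known for repressing the autophagy factor Beclin 1, the Notch ligand Dll4 and the transcription factor Snai1, and all of them share their seed. The 3p arms carry other seeds, and miR-30e-3p in particular is known to accumulate beside its guide in many tissues.

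Mature sequences of 5 of the 8 members were matched in RefSeq (GRCm38.p6). They are shown because they define the 2 seed groups and because members of an arm differ so little that reads could be shared among them. Capitals mark the seed.
miR-30a-5p: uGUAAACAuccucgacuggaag
miR-30c-5p: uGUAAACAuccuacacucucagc
miR-30e-5p: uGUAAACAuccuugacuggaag
miR-30a-3p: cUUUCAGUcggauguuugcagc
miR-30e-3p: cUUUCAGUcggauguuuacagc

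The 3 guides shown share the seed GUAAACA and begin with U, and the 3p arms shown share the seed UUUCAGU and begin with C. Guide names the 5p arm here, also for miR-30e, whose 3p arm was the more abundant one in both libraries. Counting bases from 1 at the 5′ end, miR-30a-5p and miR-30e-5p differ only by C13U. miR-30a-3p and miR-30e-3p differ only by G18A. miR-30c-5p has the first 12 bases of miR-30a-5p and 5 differences after them, over the 22 bases they can be aligned without a gap. Of the 1677 listed miRNAs with a RefSeq sequence, 4 hold the seed GUAAACA (0.239%) and 2 hold UUUCAGU (0.119%). The fourth with the guide seed is miR-384-5p, which was listed at 0 in both libraries. A value of 0 allows up to 3 reads, worth 2.40 units in the M1 library and 3.67 units in the M2 library, for counting error only.

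The hairpins lie at 3 loci in pairs (GRCm38, as all positions here). Mir30a, at chromosome 1, 23272269 to 23272339, lies between annotated genes and 19.4 kb from Mir30c-2, which lies in an exon of the non-coding gene Gm27028 at 23291701 to 23291784. Mir30e, at chromosome 4, 120772606 to 120772697, and Mir30c-1, at 120769534 to 120769622, lie in introns of Nfyc, which encodes a subunit of the transcription factor NF-Y. Mir30b, at chromosome 15, 68337415 to 68337510, and Mir30d, at 68341208 to 68341289, lie 3.70 kb apart. Mir30d lies in an exon of the non-coding gene Gm20732, and Mir30b overlaps the end of an exon of Gm26621. miR-30c-5p is the same sequence in Mir30c-1 and Mir30c-2, so its value cannot be assigned to a locus.

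The deposited values are on the scale log2(level + 1). A level is the linear value in units of that scale, and a ratio is the M1 minus the M2 log2 value. Comparisons were limited to miRNAs with 10 units or more in either library, and a miRNA was counted as different at a ratio of at least 1 in size, which is 2-fold. Of the 1976 miRNAs, 337 were compared, with a median ratio of 0.04. The levels of all miRNAs summed to 686353 units in the M1 library and 734637 units in the M2 library. At low levels 1 read was worth 0.80 units in the M1 library and 1.22 units in the M2 library. These worths come from miRNAs nearly absent from the other library, and total read numbers were not analysed here. The labelled cell type was checked with 7 macrophage and myeloid markers. All 7 reached the minimum in at least 1 library, miR-511-3p only in the M2 library, at 10.1 units. They held 21.5% of the M1 level and 13.4% of the M2 level, most of it miR-146a-5p and miR-21a-5p. In the M1 and the M2 library, miR-223-3p held 0.092% and 0.139%. miR-142a-5p held 0.110% and 0.031%, and miR-142a-3p held 0.021% and 0.041%.

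miR-30d-5p was by far the most abundant member. Its log2 value was 13.89 in the M1 library and 12.94 in the M2 library, levels of 15201 and 7879 units. It ranked 11th among all miRNAs in the M1 library and 18th in the M2 library, with 2.21% and 1.07% of the summed level. The M1 value was 1.93-fold higher, a ratio of 0.95, just under the 2-fold line.

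miR-30a-5p was the next guide in both libraries. It stood at 11.57 in the M1 library and 10.21 in the M2 library, or 3031 and 1180 units. It was 2.57-fold higher in the M1 library, a ratio of 1.36. miR-30d-5p exceeded it 5.02-fold in the M1 library and 6.68-fold in the M2 library.

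miR-30e-5p had the largest ratio of the guides. Its log2 value was 9.24 in the M1 library and 7.54 in the M2 library, or 604 and 186 units, so it was 3.24-fold higher in the M1 library, a ratio of 1.70. It ranked 81st in the M1 library and 127th in the M2 library. In the M1 library it lay above miR-30b-5p and miR-30c-5p, and in the M2 library it was the lowest of the 5 guides.

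miR-30b-5p and miR-30c-5p went the other way, though neither reached 2-fold. miR-30b-5p had 491 units in the M1 library and 668 units in the M2 library, a ratio of -0.44. miR-30c-5p had 381 and 681 units, a ratio of -0.83, which is 1.78-fold higher in the M2 library. In the M2 library these guides were nearly level, at 9.39 and 9.41 on the log2 scale.

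**Figure D1:**
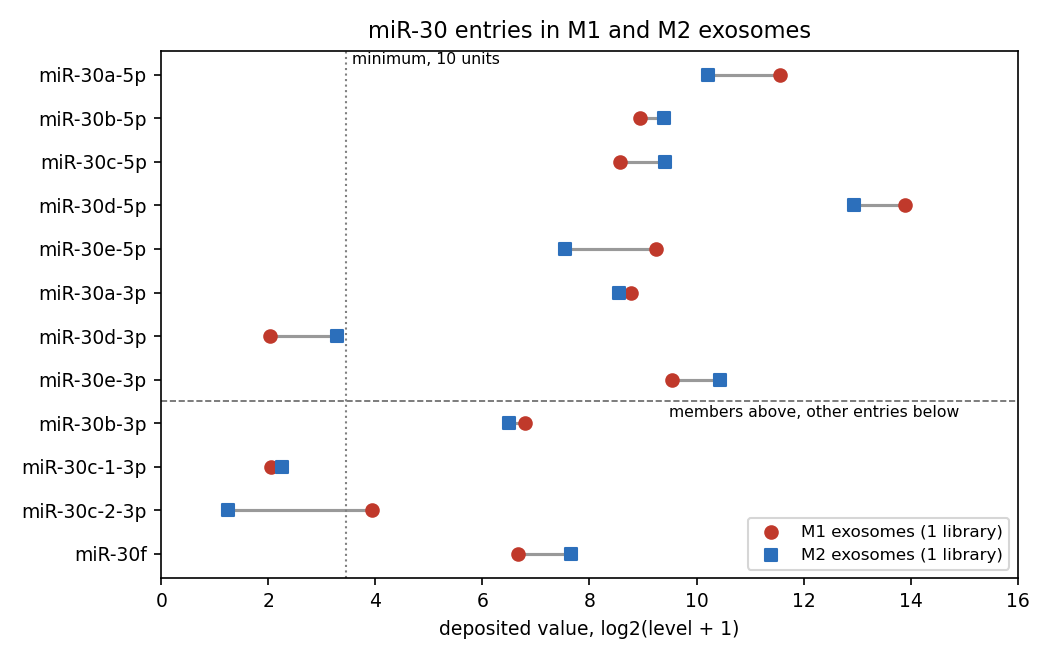
Deposited log2(level + 1) values (x axis) of each miR-30 entry (y axis), 1 library per condition, joined by a line; the dotted line marks 10 units. miR-30a-5p, miR-30d-5p and miR-30e-5p lie higher in the M1 library, miR-30b-5p, miR-30c-5p and miR-30e-3p lie higher in the M2 library, and miR-30d-3p lies below 10 units in both.

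Of the 3p members compared, miR-30e-3p lay on the opposite side of 0 from its guide and miR-30a-3p on the same side. miR-30e-3p had a log2 value of 9.54 in the M1 library and 10.45 in the M2 library, or 743 and 1395 units. It was 1.88-fold higher in the M2 library, a ratio of -0.91, where its guide was higher in the M1 library. It was the most abundant 3p member in both libraries and, in the M2 library, the second most abundant of the 8 members, above miR-30a-5p. miR-30a-3p was close between the libraries, at 436 and 375 units, a ratio of 0.22.

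miR-30d-3p, the passenger of the most abundant guide, was the only member not compared, because it stayed under 10 units in both libraries. Its level was 3.10 units in the M1 library and 8.78 units in the M2 library. These were 3.87 and 7.18 times the worth of 1 read, taken as 4 and 7 reads. The M2 level from these reads was 2.67-fold higher, with an exact 95% binomial interval for the ratio of M2 over M1 of 0.68 to 12.5. That interval covers counting error only and includes a ratio of 1.

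Of the 7 members compared, 2 were at least 2-fold higher in the M1 library, miR-30a-5p and miR-30e-5p, a share close to the 26.1% among all 337 miRNAs compared. None was at least 2-fold higher in the M2 library, against 22.8% of all. The median ratio of the 7 was 0.22, against 0.04 over all. By arm, the 5 guides had a median of 0.95 and ranged from -0.83 to 1.70. With miR-30d-3p included, the median of all 8 was -0.11, so the sign of the family median depends on that 1 low entry. When each library was divided by its own sum, the ratio of miR-30d-5p became 1.05 and 3 members passed 2-fold. The signs of the ratios of all 8 members were unchanged under the 3 scalings and the larger pseudocount tried. These settings could hardly change a sign, and a larger pseudocount cannot. The scalings moved the median of all ratios by 0.10, -0.04 and -0.06, while the member ratio nearest to no difference was 0.22.

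Summed over members, the arms differed in opposite directions. Such a sum does not depend on how reads are split within an arm, provided each read was counted once, which is not stated. The 5 guides together had 19708 units in the M1 library and 10594 units in the M2 library, 2.87% and 1.44% of the library, a log2 ratio of 0.90. Without miR-30d-5p the other 4 guides summed to 4507 and 2715 units, a log2 ratio of 0.73. The 3p members together had 1183 and 1779 units, 0.172% and 0.242% of the library, a log2 ratio of -0.59. That excess rested on miR-30e-3p, since without it the ratio was 0.19.

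The make-up of the guide pool differed mostly among its minor members. miR-30d-5p held 77.1% of the guide sum in the M1 library and 74.4% in the M2 library. The share of miR-30a-5p was 15.4% in the M1 library against 11.1% in the M2 library. miR-30e-5p held 3.07% and 1.75%. miR-30b-5p and miR-30c-5p together made up a larger part in the M2 library, where they held 6.31% and 6.43%, against 2.49% and 1.94% in the M1 library. Among the 3p members, miR-30e-3p held 62.9% in the M1 library and 78.4% in the M2 library.

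**Figure D2:**
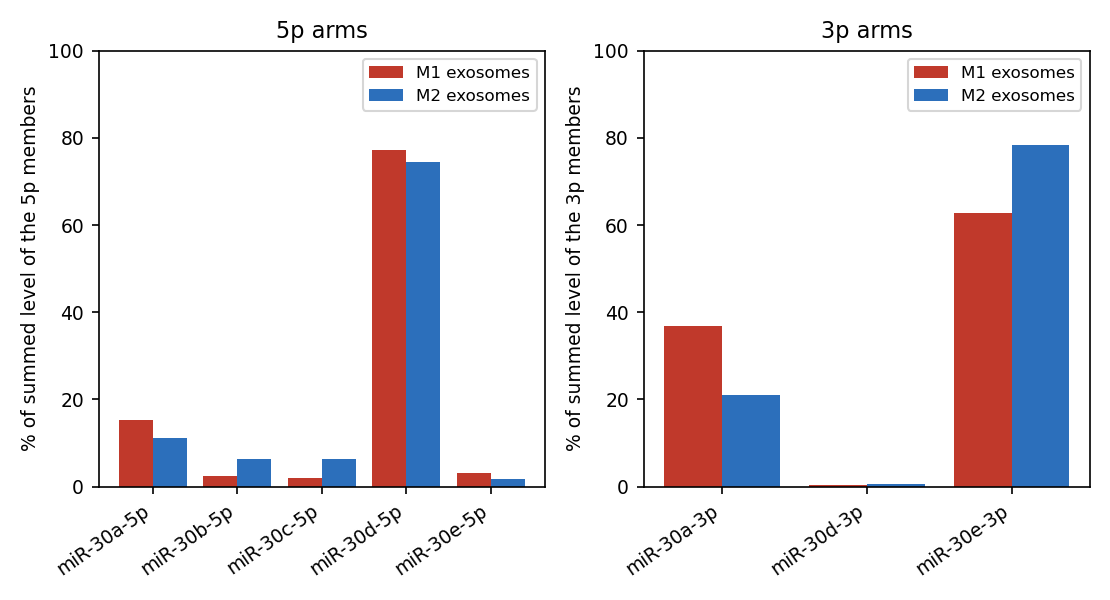
Share of each member (x axis) in the summed level of its arm (y axis, percent), 5p members on the left and 3p members on the right, 1 bar per library. miR-30d-5p holds 77.1% and 74.4% of the 5p sum, and miR-30e-3p holds 62.9% and 78.4% of the 3p sum.

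The ratio of the 5p to the 3p arm differed widely among the hairpins of the family. For miR-30a the 5p arm exceeded the 3p arm 6.95-fold in the M1 library and 3.15-fold in the M2 library. For miR-30d it did so 4911-fold and 897-fold, values that rest on the few reads of miR-30d-3p and became 1162-fold and 420-fold with 10 units added to both arms. For miR-30e the 3p arm was the more abundant one in both libraries, 1.23-fold in the M1 library and 7.51-fold in the M2 library. In each of these 3 hairpins the balance lay further towards the 5p arm in the M1 library. The miR-30b hairpin, whose 3p arm is not among the members, lay the other way. Its 5p arm exceeded its 3p arm 4.46-fold in the M1 library and 7.44-fold in the M2 library. For miR-30c no ratio was formed, since its 5p value joins 2 hairpins with separate 3p arms. The 5p members together exceeded the 3p members 16.7-fold in the M1 library and 5.96-fold in the M2 library. That 3p sum is mostly miR-30e-3p, the more abundant arm of its hairpin, and it leaves out the 3p arms of miR-30b and miR-30c. With all 6 listed 3p arms, chosen after seeing the data, the excess was 15.0-fold and 5.65-fold.

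The same shift was computed for other hairpins whose arms differ in name only by 5p and 3p, as the ratio of the 5p arm minus the ratio of the 3p arm. It was 2.60 for miR-30e, 2.20 for miR-30d, 1.14 for miR-30a and -0.74 for miR-30b. Over the 186 hairpins with both arms listed and at least 1 arm at 10 units, 19.9% had a shift of at least 1 towards the 5p arm in the M1 library, and the median was -0.29. In many of the 186, 1 arm had the same value in both libraries, so the shift is the ratio of the other arm alone. Of the 68 hairpins whose arms both reached 10 units, a restriction chosen after seeing the data, 13.2% did so, with a median of -0.42. In that set miR-30e had the fourth highest shift and miR-30a the ninth, and miR-30d is not in it. Arms on opposite sides of 0, as for miR-30e and miR-30b, were found in 26 of the 68 hairpins. In 3 of them, miR-30e included, the 5p arm was at least 2-fold higher in the M1 library and the 3p arm was higher in the M2 library.

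**Figure D3:**
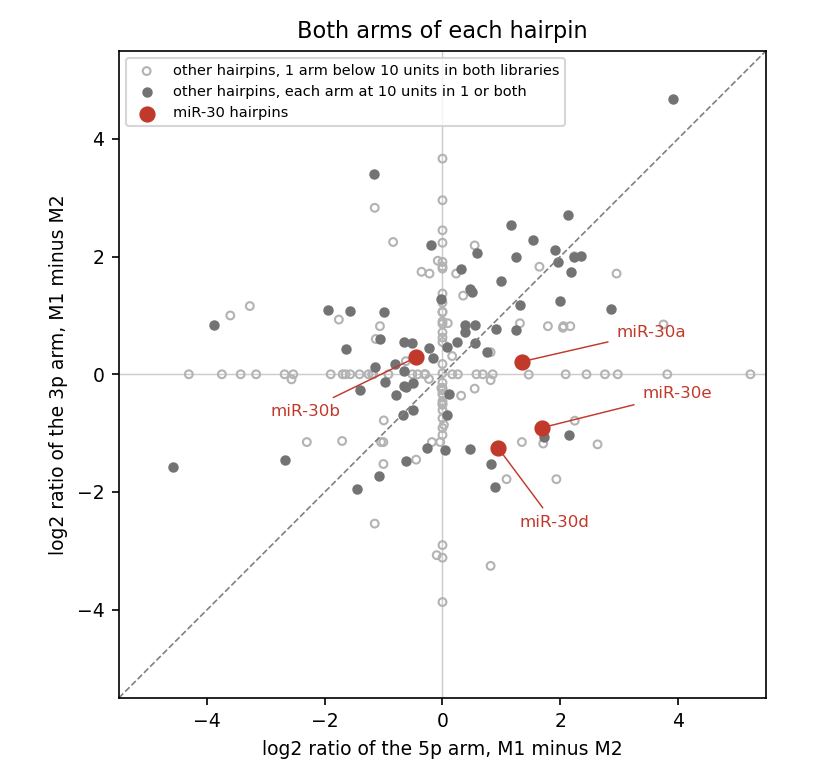
Log2 ratio (M1 minus M2) of the 5p arm (x axis) and of the 3p arm (y axis) of the same hairpin, 1 point per hairpin; the dashed line marks equal ratios. miR-30a, miR-30d and miR-30e lie below the line, by 1.14, 2.20 and 2.60, miR-30b lies 0.74 above it, and the 3p arm of miR-30d is under 10 units in both libraries.

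The guides of the chromosome 15 locus did not share a ratio, since miR-30d-5p had 0.95 and miR-30b-5p had -0.44. Their levels differed 31.0-fold in the M1 library and 11.8-fold in the M2 library. At the Nfyc locus the arms of 1 hairpin, miR-30e, parted. The passenger arms of miR-30c, unlike its guide, differ between the loci, though both were scarce.
miR-30c-1-3p: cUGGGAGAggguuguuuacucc
miR-30c-2-3p: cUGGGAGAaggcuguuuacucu

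miR-30c-1-3p, from Nfyc, had 3.14 and 3.80 units, near 4 and 3 reads, below the minimum. miR-30c-2-3p, from the chromosome 1 locus of miR-30a, had 14.3 units in the M1 library and 1.38 units in the M2 library. These were 17.9 and 1.13 times the worth of 1 read, taken as 18 reads and 1 read. From those reads the M1 level was 11.8-fold higher, with an exact 95% binomial interval of 1.86 to 491 for counting error only. It reached the minimum only through the M1 library, and its log2 ratio of 2.69 became 1.10 with 10 units added before the log. miR-30b-3p, the other listed arm at chromosome 15, had 110 and 89.8 units, a ratio of 0.29.

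A further family entry, miR-30f, is annotated on the strand opposite miR-30e. Its hairpin has the coordinates of Mir30e, and its mature form, at 120772621 to 120772642, overlaps miR-30e-3p by 19 of 22 bases. It is shown because it shares a run of 19 bases with the reverse complement of miR-30e-3p.
miR-30f: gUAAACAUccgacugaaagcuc

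The seed of miR-30f is that of the guides moved by 1 base. Its level was 100 units in the M1 library and 200 units in the M2 library, a ratio of -0.98 beside -0.91 for miR-30e-3p. It amounted to 13.5% of miR-30e-3p in the M1 library and 14.3% in the M2 library. Whether the authors' counting used strand is not given in the sources used here, and without strand the reads of these entries cannot be told apart. In the same way, the counting of reads that fit both miR-30a and miR-30e is not stated. miR-30a-5p exceeded miR-30e-5p 5.02-fold in the M1 library and 6.35-fold in the M2 library, and miR-30e-3p exceeded miR-30a-3p 1.70-fold and 3.72-fold.

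Markers of other cell types had higher sums per list in the library that held more of the guides, though single markers were mixed. The 4 erythroid markers summed to 0.756% of the level in the M1 library and 0.124% in the M2 library. Most of that was miR-451a and miR-486a-5p, with ratios of 2.72 and 2.36, while miR-144-3p had 3.19 and 1.33 units. The 3 hepatocyte markers, nearly all miR-122-5p, summed to 8.78% and 1.78%. The 5 stromal markers summed to 0.194% and 0.106%, the 2 endothelial ones to 0.140% and 0.080%, and the 6 epithelial ones to 0.035% and 0.023%. The markers with a higher value in the M2 library were miR-143-3p, miR-141-3p, miR-200b-3p and miR-203-3p, at ratios of -0.33, -1.79, -0.61 and -0.46. Markers under 10 units in both libraries are included in the sums. The macrophage and myeloid list also had the higher sum in the M1 library, 21.5% against 13.4%. Its largest part was miR-146a-5p, at 17.6% and 6.89%, while miR-21a-5p held 3.33% in the M1 library and 6.19% in the M2 library. The median ratio of its 7 markers was -0.69. Of them, 3 were at least 2-fold higher in the M1 library and 2 in the M2 library. Of the 20 markers of other cell types, 2 lay below the worth of 3 reads in the M1 library and 5 in the M2 library. None was listed at 0, but some values were below the worth of 1 read. These were miR-214-3p and miR-205-5p in the M2 library, at 0.080 and 0.021 units, and miR-141-3p in the M1 library, at 0.72 units. The guide sum was 1.86-fold higher in the M1 library, and the part of RNA from other cell types in it was not tested. Fewer vesicles carrying a miRNA and less of it in each vesicle cannot be told apart in these libraries.

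The same counts were taken for lists of other widely expressed families. In the list of let-7 guides, 0 of 9 members compared were at least 2-fold higher in the M1 library and 3 were so in the M2 library, with a median ratio of -0.49. In the miR-26 list, 1 of 3 was higher in the M1 library and 2 in the M2 library, with a median of -1.17. The 1 higher in the M1 library, miR-26b-3p at 10.4 and 0.081 units, reached the minimum only through that library. In the miR-29 list, 1 of 5 was higher in each direction and the median was 0.40. The 1 higher in the M2 library, miR-29c-5p at 7.83 and 25.2 units, reached the minimum only through that library. Over all 337 miRNAs compared, 26.1% were at least 2-fold higher in the M1 library and 22.8% in the M2 library. No test of these differences was possible with 1 library per condition.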

How the data were processed

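The members, lists and rules were chosen with earlier results of these data known. Per the submitters' processing notes, the tools were Bowtie2 and bedtools and the build was mm10, with no roles stated. How reads were counted and normalized, and the use of strand, is not given in the sources used here. Log2 values were deposited by the authors, 1 per mature miRNA, whose method is not stated. They were read as log2(level + 1), because levels of miRNAs nearly absent from the other library fell on even steps. In the M1 library 99.4% of 175 such levels, and in the M2 library 95.3% of 129, were whole multiples of 1 step within 0.1 step. The 175 were M1 levels of miRNAs with almost no M2 level, and the 129 were M2 levels of miRNAs absent from the M1 library. Entries present in both libraries, such as miR-30d-3p, did not all fall on steps, so their read numbers are rounded. M2 values below 1 step were taken as a sign that the libraries were normalized together. The minimum of 10 units equals 12.5 reads in the M1 library and 8.18 in the M2 library. The values were no counts, so the planned rule was applied to units of the deposited scale.

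All 8 members, the other listed miR-30 entries, lists fixed in the design and the 3 nearest patterns of miR-30a-5p, miR-30d-5p and miR-30e-5p were named, and a few other miRNAs after their values were seen. Alternatives covered scaling, pseudocount and minimum. The ratio procedure was tested on simulated data. Positions come from RefSeq GRCm38.p6 and GENCODE M21, on the assembly called mm10. Python 3.11.15, numpy 2.4.6, pandas 2.3.3 and scipy 1.17.1 were used.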

Additional observations from a re-analysis of the deposited data

How the results depend on the processing

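No paired analysis was possible because each condition has 1 library, and none could be left out. The steps are known only for low levels of miRNAs nearly absent from the other library, so precision elsewhere is unknown. Of 88 recomputed values, 77 kept their direction and, for ratios, their side of the 2-fold line and moved by at most 1.5-fold. The 77 include the number of members at least 2-fold higher in the M1 library. It went from 2 to 3 when each library was divided by its sum. The scalings move all ratios nearly alike, so these are not 88 separate checks. With no minimum, miR-30d-3p entered, the number of members at least 2-fold higher in the M2 library became 1, and the family median became -0.11. With miR-30e-3p left out, the log2 ratio of the 3p sum turned to 0.19. With 10 units added, the 5p over 3p ratio of miR-30d became 1162 in the M1 library and 420 in the M2 library. Its shift between arms became 1.47 (an alternative chosen after seeing the data), its 3p ratio became -0.52 and that of miR-30c-2-3p 1.10. Division by the library sum, which moved the median of all ratios by 0.10, took miR-30d-5p to 1.05. Median centring and division by the sum without the 10 most abundant miRNAs took miR-30f to -1.02 and -1.05.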

Other observations

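The miRNAs nearest to each guide in the pair of log2 values were read off over the 2 libraries, as a description of these libraries. For miR-30a-5p they were miR-22-3p (11.34 in the M1 library and 10.06 in the M2 library, at a distance of 0.27), miR-155-5p (11.25 and 9.90, at 0.44) and miR-191-5p (11.30 and 10.80, at 0.66). miR-22-3p and miR-155-5p had ratios of 1.28 and 1.35, next to the 1.36 of miR-30a-5p. For miR-30d-5p they were miR-27a-3p (13.59 and 13.16), miR-222-3p (13.38 and 12.85) and miR-24-3p (13.79 and 13.68), whose ratios of 0.43, 0.53 and 0.10 were all below its own 0.95. For miR-30e-5p they were miR-486b-3p, miR-486a-3p and miR-379-5p, at ratios of 1.99, 2.02 and 1.99.

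The other hairpins with a shift towards the 5p arm larger than that of miR-30e, among the 68 with both arms at the minimum, were named after their values were seen. They were miR-582 at 3.18, miR-669a at 2.81 and the haematopoietic miR-142a at 2.79. The arms of miR-142a parted much as those of miR-30e did. miR-142a-5p had 757 units in the M1 library and 229 units in the M2 library, a ratio of 1.72, while miR-142a-3p had 142 and 299 units, a ratio of -1.07. In miR-582 the 5p arm had a ratio of 2.15 and the 3p arm -1.04.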
